A study of Mus musculus with 6 samples.

Results

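The drug and organic ion transporters of the liver were followed in mouse pups that expressed human *SRY* from an activated transgene. Members were the *Slco*, *Slc22a*, *Slc47a*, *Abcb*, *Abcc* and *Abcg* genes of the array, chosen by symbol and leaving out *Abcb11*, *Abcg5* and *Abcg8*, which gave 76 probes of 49 genes out of 25697 probes of 18138 symbols. Total liver RNA of male FVB pups (FVB/N in the methods) at postnatal day 6 was hybridised to bead arrays, 3 from hSRY-ON and 3 from hSRY-OFF mice. In hSRY-ON pups the silent *Signalox-hSRY* transgene, a single copy at 1 chosen site of the genome, had been recombined in the fertilised egg by Cre protein from oocytes of *Ddx4-Cre* mothers, so that FLAG-tagged human *SRY* and EGFP were driven in all tissues by the *CAG* promoter. The hSRY-ON pups taken for the arrays did not carry *Ddx4-Cre* themselves, per the study's methods. By the methods, hSRY-OFF mice carried the transgene in its unrecombined, silent form, but littermates without it are also called controls there, and the labels do not tell which were used. No treatment was given to either group, and the labels name no litter or batch. The paper reports that hSRY-ON pups grew more slowly, lacked milk in the stomach and had lipid in their hepatocytes. How far these bear on the differences below was not tested.

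Hepatocytes take drugs, bile acids, hormones and other organic ions from the blood and pass them on to bile. Uptake is carried out on the blood side by organic anion transporting polypeptides (*Slco* genes) and by organic cation, carnitine and organic anion carriers (*Slc22a* genes). Export into bile or back to blood is carried out by ATP-driven pumps (*Abcb*, *Abcc* and *Abcg* genes) and by proton-coupled exchangers (*Slc47a* genes). In rodents many of these genes reach their adult level only after birth, and several are markers of mature hepatocytes.

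The 6 arrays had median intensities of 147 to 165 before normalization, and each detected 10318 to 10762 probes, which is 40.2% to 41.9% of the array, at a detection p under 0.01. The level of a probe is given as log2 normalized intensity, and differences are hSRY-ON minus hSRY-OFF on that scale. Of 8 hepatocyte marker probes, the 6 of *Apoa1*, *Ttr*, *Apoc3*, *Alb* and *Serpina1a* were detected on all arrays, that of *Fgb* on 1 and that of *Tat* on 0, while 0 of 10 probes of kidney tubule markers, the organ in which several *Slc22a* genes are best known, were detected on any array. On hSRY-ON replicate 2 alone the pancreas markers *Ctrb1* (7.87), *Cel* (7.13) and *Cpa1* (6.10) were detected. On hSRY-ON replicate 3 the neutrophil markers *Camp* (13.20, against 11.26 and 11.56 on the other hSRY-ON arrays) and *Ela2* (11.70, against 9.23 and 9.83) stood apart. The part of these cells in the results was not tested. In whole tissue, fewer cells of a type and less RNA per cell cannot be told apart.

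Most transporter probes gave no signal. Of the 76 probes, 46 were detected on none of the 6 arrays, 25 on all of them, and 29 probes of 22 genes passed the filter of detection on at least 3 arrays and were tested. On the whole array, 10734 of 25697 probes passed this filter, so a lack of signal was not particular to the transporters. The 27 genes without a tested probe included *Slco1a1* and *Slco1a4*, blood side carriers of bile acids and steroid conjugates, the drug pumps *Abcb1a*, *Abcb1b* and *Abcg2*, and the cation carrier *Slc22a3*. Low expression and a weak probe cannot be told apart here, and no difference between the groups was tested for these genes. *Abcc4*, another blood side exporter, had no probe under that symbol among the 76 and so could not be analysed.

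Where members lie side by side in the genome (RefSeq gene table, GRCm38.p6), single genes of a cluster carried the signal. On chromosome 6, *Slco1b2* was detected on all 6 arrays and the 5 other *Slco1* genes beside it on 0 arrays. On chromosome 5, *Abcb4* was detected on all arrays and *Abcb1a* and *Abcb1b* on 0. On chromosome 11, *Slc22a5* was detected on all arrays, *Slc22a21* on 0 and *Slc22a4* on 1 hSRY-ON array.

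Of the 29 tested transporter probes, 7 (of 5 genes) rose and 8 (of 6 genes) fell in hSRY-ON livers, against 15.8% of all 10734 tested probes called higher and 17.3% called lower (limma, adjusted p under 0.05). The called share was 51.7% of the tested transporter probes beside 33.1% of all tested probes. These are descriptions, since probes of 1 gene share their transcript and the members passed a filter on signal. With no filter, 6 of 76 member probes were called higher and 8 lower, beside 6.06% and 6.92% of all 25697 probes. Without hSRY-ON replicate 1, 4 of 29 tested member probes were called higher and 8 lower, beside 10.3% and 13.9% of all tested probes. Without replicate 2 the counts were 5 and 8, beside 13.3% and 16.2%. Without replicate 3 they were 8 and 9, beside 17.4% and 20.2%. All 15 called probes had groups without overlap. Among the 29 tested members, 8 probes were higher without overlap and 11 lower, beside 25.4% and 24.6% of all tested probes.

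**Figure D1:**
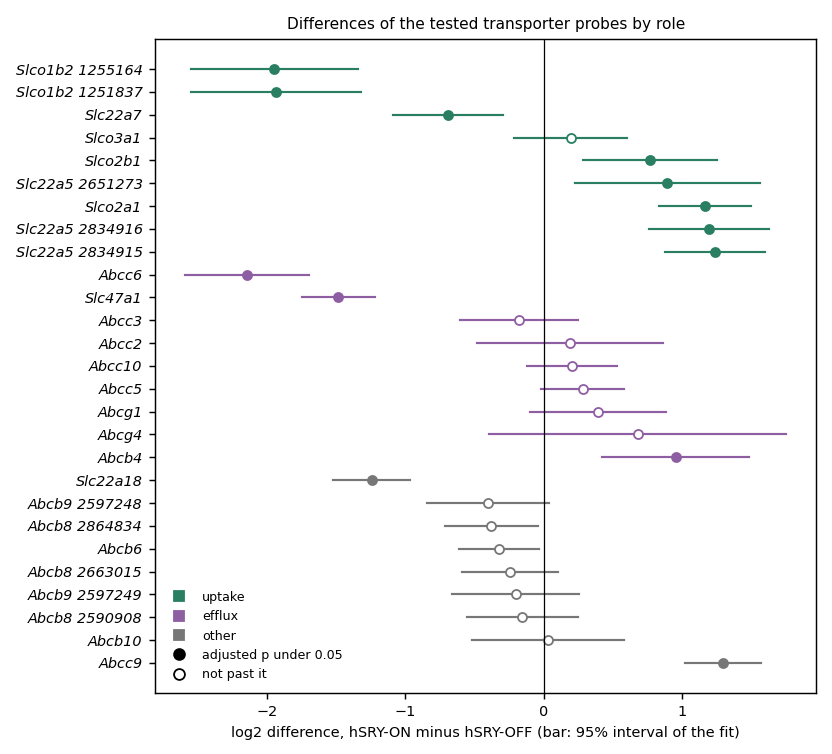
Difference of 27 tested transporter probes on the log2 scale (hSRY-ON minus hSRY-OFF, 3 arrays each), ordered by role, with the 95% interval of the limma fit. Filled points passed an adjusted p of 0.05. The uptake probes lie on both sides, from -1.95 to 1.24, and only *Slco3a1* among them is open, while 6 of the 9 efflux probes are open.

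Of the tested uptake probes 90.9% were called, from 6 genes, and of the tested efflux probes 33.3%, which is near the 33.1% of all tested probes. Of 11 tested uptake probes of 7 genes, 5 rose, 5 fell and 1 did not pass, with a median difference of 0.19. Of 9 tested efflux probes of 9 genes, 1 rose, 2 fell and 6 did not pass, with a median of 0.20. The median over all tested probes was 0.02. The medians of both roles were thus near that of the array although the uptake genes moved far apart, and the contrast between the roles was not tested. Both medians turned negative when genes were assigned by family alone (-0.25 for *Slco* and *Slc22a*, -0.15 for *Slc47a* and the ATP-driven families). The uptake median was also negative with detection required on all 6 arrays (-0.25), with a detection p under 0.05 (-0.026) and with no filter (-0.0042).

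*Slco1b2*, the hepatocyte carrier for conjugated bilirubin, bile acids and statins, fell with both of its tested probes, and its other probe was not detected. ILMN_1251837 read 7.47, 8.15 and 8.30 in control and 5.65, 6.33 and 6.14 in hSRY-ON livers, without overlap. Its difference was -1.93 ± 0.26 (SE, adjusted p 0.00202), 3.82-fold lower. ILMN_1255164 differed by -1.95 ± 0.26 (SE, adjusted p 0.00185), and since only 1 hSRY-ON array detected it, the difference was -1.60 with the undetected arrays set to their detection floor. Both differences were smaller without background correction, at -0.98 and -0.79, and were called there too.

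*Slc22a7* (Oat2), an organic anion carrier of the same membrane, was lower by a smaller step. Its probe read 7.76, 8.02 and 8.32 on control and 7.25, 7.50 and 7.26 on hSRY-ON arrays, a difference of -0.69 ± 0.17 (SE, adjusted p 0.0187). The groups were separated by a narrow gap. The call was lost without hSRY-OFF replicate 2 (0.0614), hSRY-OFF replicate 3 (0.0528) or hSRY-ON replicate 1 (0.061), within 0.01 to 0.0614 over all alternatives, and the difference was -0.43 without background correction.

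Other uptake genes rose. *Slc22a5* (Octn2) carries carnitine, which fatty acids need to enter mitochondria. Its probe ILMN_2834915 read 8.79, 8.73 and 8.77 in control and 10.21, 10.09 and 9.71 in hSRY-ON livers, a difference of 1.24 ± 0.15 (SE, adjusted p 0.00145) or 2.36-fold. Every hSRY-ON array lay well above the tight control group. ILMN_2834916 gave a like difference of 1.19 ± 0.18 (SE, adjusted p 0.00343), which was 0.75 without background correction. ILMN_2651273, detected on only 1 control array, differed by 0.89 ± 0.29 (SE, adjusted p 0.0476), or 0.57 with undetected arrays at their floor. This call was lost under 9 of its 16 alternatives (0.00952 to 0.142), among them no background correction (difference 0.30) and leaving out hSRY-OFF replicate 2 or 3 or hSRY-ON replicate 1 or 2.

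*Slco2a1*, the prostaglandin transporter, read 9.84, 9.92 and 9.51 on control arrays and 10.94, 10.86 and 10.98 on hSRY-ON arrays. The hSRY-ON values were close together and all above control, with a difference of 1.17 ± 0.14 (SE, adjusted p 0.0013) or 2.25-fold. It is expressed in vascular endothelium. Of the 6 tested probes of endothelial markers 3 rose and 0 fell, beside 15.8% and 17.3% of all tested probes. Those that rose were both of *Pecam1*, by 0.64 each, and *Lyve1* by 1.94, or 1.85 with undetected arrays at their floor. The summed normalized intensity over the 7 probes of endothelial cells was 2689 to 3222 in control and 3107 to 3929 in hSRY-ON livers. *Stab2* and *Cdh5*, defining genes of these cells, were detected on every array and differed by 0.24 and 0.13, which did not pass. *Tek* differed by -0.40 (adjusted p 0.136), lower without overlap of the groups. The part of these cells in the rise of *Slco2a1* was not tested.

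*Slco2b1*, a carrier of steroid sulfates and many drugs, was dim. It read 5.57, 6.13 and 6.04 in control, where 2 arrays detected it, and 6.79, 6.89 and 6.35 in hSRY-ON livers. The difference of 0.77 ± 0.21 (SE, adjusted p 0.0265), 0.69 with the undetected array at its floor, lost its call without hSRY-OFF replicate 1 (0.09) or 3 (0.0532), without hSRY-ON replicate 1 (0.0815) or 2 (0.0661) and with no filter (0.0507), within 0.00631 to 0.09 over all alternatives. It was 0.30 without background correction. *Slco3a1* differed by 0.19 (95% interval -0.22 to 0.60, adjusted p 0.425), which did not pass.

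**Figure D2:**
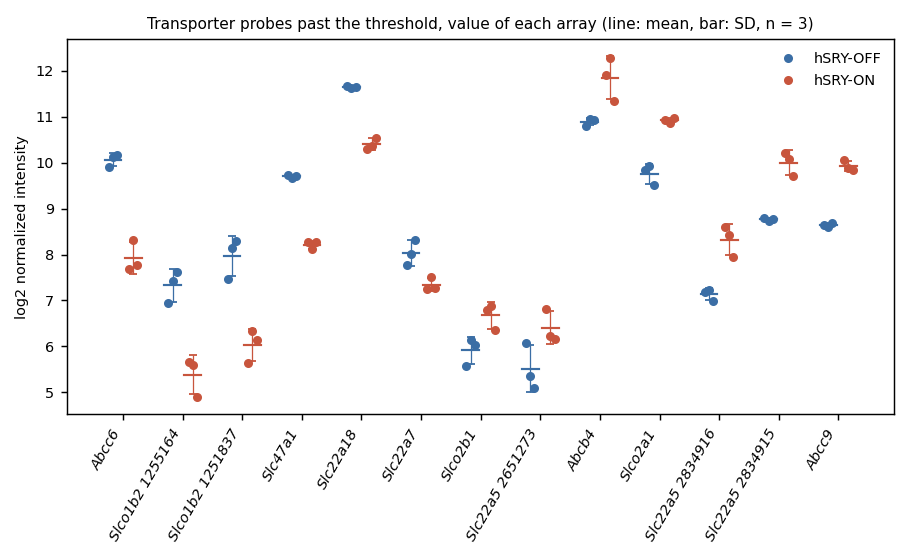
Log2 normalized intensity of 13 transporter probes past the threshold on each of the 6 arrays, ordered from the most lowered to the most raised. Blue points are hSRY-OFF and red points hSRY-ON arrays, horizontal lines group means and bars the SD (n = 3), and numbers beside a symbol name the probe. At each probe the 3 red points lie on 1 side of the 3 blue points. The red points of *Abcb4* are the most spread.

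The sequence before the start of *Slco1b2*, an uptake gene that fell, and of *Slc22a5*, one that rose, is shown because these are the hepatocyte carriers for which more than 1 probe moved and a promoter was in the table used. The RefSeq promoter table (GRCm38.p6, the C57BL/6J reference, not FVB) held 7 of the 11 called genes and 9 promoters of them, and *Slc22a7*, *Slc47a1* and *Abcc6* were among those not in it. Each line gives the 250 bases upstream of the start, 5′ to 3′ on the strand of the gene. Capitals mark matches on either strand to the core letters of the Hnf1 site (GTTAAT), the nuclear receptor site (AGGTCA), the aryl hydrocarbon receptor site (GCGTG) or the antioxidant response element (TGACNNNGC).
*Slco1b2* (chr6:141629268-141629517, plus strand): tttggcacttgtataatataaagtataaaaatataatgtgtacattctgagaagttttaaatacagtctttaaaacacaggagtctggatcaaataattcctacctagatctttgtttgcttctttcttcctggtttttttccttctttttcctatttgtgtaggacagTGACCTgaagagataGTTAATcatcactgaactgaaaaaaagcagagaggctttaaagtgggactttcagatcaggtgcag
*Slc22a5* (chr11:53891704-53891953, minus strand): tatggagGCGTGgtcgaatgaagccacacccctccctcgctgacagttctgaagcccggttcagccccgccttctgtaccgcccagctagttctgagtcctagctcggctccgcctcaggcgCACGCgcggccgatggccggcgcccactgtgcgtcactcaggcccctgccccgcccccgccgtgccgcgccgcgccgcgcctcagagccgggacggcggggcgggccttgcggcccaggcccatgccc
The window of *Slco1b2* held an Hnf1 core at bases 66 to 61 before the start and a nuclear receptor core, read on the opposite strand, at bases 81 to 76. Among all 32851 windows of this length, 6.43% held the Hnf1 core and 14.0% the nuclear receptor core. The window of *Slc22a5* held the aryl hydrocarbon receptor core at bases 243 to 239 and 128 to 124, a match found in 28.2% of all windows. Of the other called genes only *Abcb4* had a match, to the aryl hydrocarbon receptor core at bases 6 to 2. The antioxidant core, present in 10.2% of all windows, was in none of the 9. The matches are descriptions of sequence, and no binding was measured.

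On the export side, *Slc47a1* (Mate1), the exchanger that hands organic cations to bile, fell. Its tested probe read 9.73, 9.66 and 9.72 in control and 8.26, 8.12 and 8.27 in hSRY-ON livers. Both groups were tight, and the difference of -1.48 ± 0.11 (SE, adjusted p 0.000225) was a 2.80-fold lower level. Its other probe was not detected.

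*Abcc6*, a blood side protein of hepatocytes through which ATP is released and whose loss in humans causes pseudoxanthoma elasticum, showed the lowest efflux values relative to control. It read 9.90, 10.13 and 10.16 on control arrays and 7.68, 8.32 and 7.77 on hSRY-ON arrays. The difference was -2.14 ± 0.19 (SE, adjusted p 0.00039), or 4.42-fold lower.

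*Abcb4* (Mdr2), which moves phosphatidylcholine into bile, rose. It read 10.81, 10.94 and 10.93 in control and 11.92, 12.27 and 11.35 in hSRY-ON livers, with hSRY-ON replicate 3 nearest to control. The difference was 0.95 ± 0.23 (SE, adjusted p 0.0172), or 1.94-fold. The call was lost without hSRY-OFF replicate 1 (0.0655), hSRY-OFF replicate 2 (0.0553) or hSRY-ON replicate 1 (0.0565), within 0.00146 to 0.0655 over all alternatives.

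The other efflux genes did not pass the threshold. *Abcc2* (Mrp2), the bile side pump for conjugated bilirubin, read 8.94, 9.09 and 8.99 in control and 9.03, 9.88 and 8.67 in hSRY-ON livers, so that the hSRY-ON arrays lay on both sides of control (difference 0.19, 95% interval -0.48 to 0.86, adjusted p 0.644). *Abcc3* (Mrp3), its counterpart on the blood side, differed by -0.18 (95% interval -0.61 to 0.24, adjusted p 0.473). *Abcc5*, an exporter of cyclic nucleotides, differed by 0.28 (95% interval -0.02 to 0.58, adjusted p 0.128), without overlap of the groups. *Abcc10* differed by 0.20 (95% interval -0.12 to 0.53, adjusted p 0.294). The intervals for *Abcc2* and *Abcc3* include changes of up to 0.86 and -0.61, so a lack of change was not shown.

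The sterol exporters *Abcg1* and *Abcg4* differed by 0.39 (95% interval -0.10 to 0.88, adjusted p 0.185) and 0.68 (95% interval -0.40 to 1.75, adjusted p 0.288). *Abcg4* varied most among the control arrays, at 7.60, 6.71 and 8.74, and was past the threshold without hSRY-OFF replicate 3 (difference 1.21, adjusted p 0.0322, within 0.0322 to 0.725 over all alternatives). *Abcg1*, detected on 2 control arrays, was past it without hSRY-ON replicate 3 (0.58, adjusted p 0.0419, within 0.0419 to 0.432).

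By place in the hepatocyte, *Slc22a7* and *Slco1b2* of the blood side uptake genes fell and *Slco2b1* rose. Of the 3 tested probes of bile side exporters, *Abcb4* rose, *Slc47a1* fell and *Abcc2* did not pass. Of the 3 tested blood side exporters, *Abcc6* fell, and *Abcc3* and *Abcc5* did not pass.

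**Figure D3:**
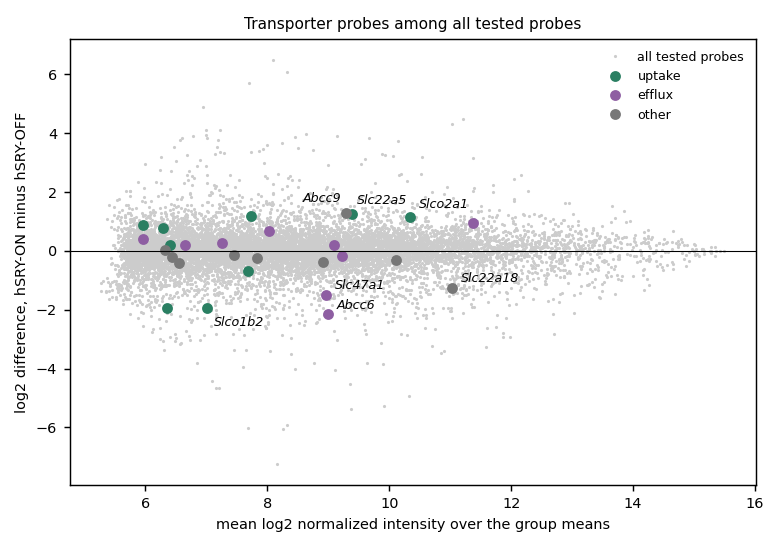
Difference (hSRY-ON minus hSRY-OFF, log2) of each of the 10734 tested probes against its mean log2 normalized intensity, in grey, with 27 transporter probes coloured by role and the genes beyond 1.1 in either direction named at their brightest probe. The points of *Abcc6* and *Slco1b2*, near -2, are the lowest of the coloured points, while most efflux points lie near 0.

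Of the 9 tested probes of members that are neither uptake carriers nor drug exporters, 7 did not pass. The called share was 22.2%, beside 33.1% of all tested probes. *Abcc9*, the sulfonylurea receptor subunit of potassium channels in muscle and vessel walls, rose. Its probe ILMN_3104271 read 8.64, 8.60 and 8.68 in control and 10.06, 9.89 and 9.85 in hSRY-ON livers, a difference of 1.30 ± 0.12 (SE, adjusted p 0.000403) or 2.45-fold, and its 3 other probes were not detected. Of the stellate cell markers, *Des* rose by 0.77 (adjusted p 0.0383) and *Reln* fell by 0.66. *Lrat*, not detected on any hSRY-ON array, was at least 2.23-fold lower. *Col1a1* differed by -0.47 (adjusted p 0.0585) and *Pdgfrb* by 0.24 (0.655), and neither passed. The summed normalized intensity of the stellate markers was 7688 to 8770 in control and 5224 to 5491 in hSRY-ON livers. Most of this sum was that of *Reln* (mean level 12.82 in control and 12.16 in hSRY-ON livers). The part of vessel wall or stellate cells in the rise of *Abcc9* was not tested.

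*Slc22a18*, an imprinted gene whose substrate is not settled, fell in hSRY-ON livers. It read 11.68, 11.63 and 11.65 in control and 10.31, 10.36 and 10.55 in hSRY-ON livers, a difference of -1.25 ± 0.12 (SE, adjusted p 0.000492) or 2.37-fold, with 1 of its 2 probes. The other probe was below the detection limit on every array and was not tested. It read 4.76, 4.63 and 5.01 in control and 5.07, 5.69 and 5.48 in hSRY-ON livers, the opposite direction. The porphyrin transporter *Abcb6* read 10.24, 10.16 and 10.42 against 10.02, 9.96 and 9.86, a difference of -0.32 that did not pass (adjusted p 0.0822). The mitochondrial genes *Abcb8* (3 probes, -0.38 to -0.15) and *Abcb10* (0.03, 95% interval -0.52 to 0.58) and the lysosomal *Abcb9* (2 probes, -0.40 and -0.20) did not pass either. *Abcb10* is known for its part in heme synthesis of red cells. Of 7 tested erythroid marker probes 2 rose (*Alas2* by 0.93 and *Ermap* by 0.86) and 0 fell, beside 15.8% and 17.3% of all tested probes. The probe of *Hba-a1*, 1 of the 7, read 15.50 on every array after normalization and so could show no difference.

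Genes that control these transporters or hold them in the membrane were read as a list. Of 21 listed genes 20 were in the table, with 22 tested probes, of which 2 rose and 7 fell, beside 15.8% and 17.3% of all tested probes, and the median difference was -0.02. Among nuclear receptors, *Nr1i3* (CAR), which senses foreign compounds, fell by 1.39 (adjusted p 0.00349) and *Nr1h3* (LXR alpha) fell with both probes, by 0.94 and 1.08 (adjusted p 0.00418 and 0.013), the latter -0.87 with 1 undetected hSRY-ON array at its floor. *Nr1i2* (PXR) differed by 0.28 (adjusted p 0.145), *Nr1h4* (FXR) by -0.10 (0.625), *Rxra* by 0.31 (0.177) and *Ppara* by -0.85 (0.0536), and none of these passed.

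Of the hepatocyte factors, *Cebpa* fell by 1.66 (adjusted p 0.00392) and *Foxa2* fell by 0.83 (0.0304) with its 1 tested probe, while *Hnf4a* differed by -0.09 (95% interval -0.58 to 0.40, adjusted p 0.768). The scaffold genes *Pdzk1* and *Slc9a3r1*, whose proteins anchor transporters at the cell membrane, fell by 1.41 (adjusted p 0.0095) and 1.32 (0.00822). *Slc9a3r2*, a scaffold gene of the same list, differed by 0.15 (0.64) with its tested probe, which did not pass. *Rdx* was not detected on any array. *Arnt*, the partner of the aryl hydrocarbon receptor, rose by 0.97 (adjusted p 0.00549) with its 1 tested probe. Its other probe and the probe of *Ahr*, the gene of the receptor itself, were not detected on any array and were not tested. *Keap1*, which restrains the antioxidant factor Nrf2, was called higher with 1 of its 4 probes (0.41, adjusted p 0.0404), and *Nfe2l2*, which encodes Nrf2, differed by 0.20 (0.539).

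**Figure D4:**
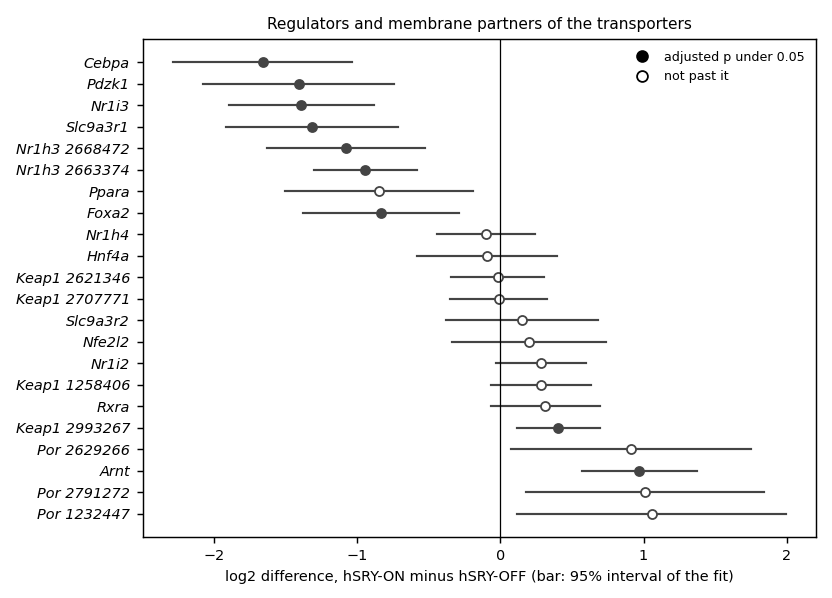
Difference of the 22 tested probes of regulators and membrane partners of the transporters (log2, hSRY-ON minus hSRY-OFF, 3 arrays each) with the 95% interval of the limma fit, filled where the adjusted p was under 0.05. The filled points on the left are *Cebpa*, *Pdzk1*, *Nr1i3*, *Slc9a3r1*, *Nr1h3* with both probes and *Foxa2*. *Hnf4a* and *Nr1h4* lie near 0.

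Markers of other liver cells were read beside these results. Each count below stands beside 15.8% of all tested probes called higher and 17.3% called lower. Of 6 tested hepatocyte probes 1 rose (*Apoc3*, by 1.35) and 4 fell (*Alb*, *Ttr* and both of *Serpina1a*, by 0.46 to 1.11), with a summed normalized intensity over 8 probes of 70974 to 75000 in control and 75736 to 76830 in hSRY-ON livers. Most of this sum was that of *Apoa1*, *Ttr* and *Apoc3*. Their mean levels were 15.10, 14.67 and 13.18 in control and 14.98, 14.21 and 14.53 in hSRY-ON livers, so only *Apoc3* was higher. The *Alb* probe had a mean of only 7.94 in control. Of 9 tested macrophage probes 1 rose and 4 fell, and of 9 neutrophil probes 0 passed (limma, 1 at an unadjusted p under 0.05), with a summed normalized intensity of 40210 to 46128 in control and 27700 to 81518 in hSRY-ON livers. *Ela1*, of the pancreas list, rose by 0.44 and was the only tested probe of that list, whose summed normalized intensity was 608 to 703 in control and 870 to 1156 in hSRY-ON livers. The part of cell composition in the transporter differences was not tested.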

How the data were processed

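The authors ran liver RNA of male pups (3 hSRY-ON, 3 hSRY-OFF) on Illumina MouseRef-8 bead arrays. The deposited intensity of a probe is its mean bead brightness on a linear scale, neither background-subtracted nor normalized (lowest value 108). The deposited detection p-value ranks it among the negative control beads of its array. Scanner software and genome build were not given in the sources used here, and 0 columns were left without a sample. The study normalized and tested with TCC, a package for counts, which was not used here because the values are intensities. Background was inferred from the detection p-values and removed with nec (limma 3.58.1, R 4.3.3, offset 16), followed by quantile normalization and log2. The offset shrinks differences of dim probes. Probes detected (p under 0.01) on 3 or more of the 6 arrays were tested with limma's lmFit and eBayes (two-sided, no covariates), with Benjamini-Hochberg adjustment over all 10734 tested probes and a threshold of 0.05. Intervals of 95% are those of the fit. Probes of a gene were tested separately. Arrays are labelled as separate samples and the study calls them biological triplicates, and their number limits the precision.

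Named were 21 genes whatever their values and every called member whose groups did not overlap, up to 20 symbols, and some of these are not reported here, nor drawn in the figures, though counts and medians include them. The members, roles and lists were chosen with earlier results of these data known. Of the 49 member symbols 48 were current in RefSeq, and *Slc22a9* matched more than 1 gene and was not detected. The steps were tested on simulated data. Alternatives covered background correction, offset, scaling, detection filter, variance model, replicate block, class assignment and each array left out.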

Additional observations from a re-analysis of the deposited data

How the results depend on the processing

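Of the 15 called transporter probes, 11 kept their direction and their call under every alternative run for them, up to 17 each, and 0 reversed. The exceptions were *Abcb4*, *Slc22a7*, *Slco2b1* and probe ILMN_2651273 of *Slc22a5*. Leaving out 1 array gave 4 to 8 transporter probes called higher and 7 to 9 called lower. Of all tested probes, 8.19% to 17.4% were then called higher and 9.23% to 20.2% lower. At an adjusted p under 0.01 the transporter counts were 4 higher and 7 lower. The share of all tested probes called at that threshold was not counted, so these counts have nothing to be set beside. Why the counts changed with an array left out was not tested. Of the 14 uncalled probes, 6 were called under some alternative. The median difference of uptake probes was -0.25 with detection required on all 6 arrays, -0.25 by family alone, -0.026 at a detection p under 0.05 and -0.0042 with no filter, and ranged from 0.016 to 0.29 with 1 array left out. That of efflux probes was 0.062 with no filter and -0.15 by family alone, and ranged from 0.17 to 0.33 with 1 array left out. Class medians rest on 9 to 11 probes. The replicate numbers of the labels were not taken as pairs: deviations of same-numbered arrays correlated at 0.025, 0.095 and 0.052 across probes, and hSRY-OFF replicate 1 correlated best with hSRY-ON replicate 3 (0.13). With the replicate block, 7 transporter probes were called higher and 8 lower, as without it, beside 14.6% and 15.3% of all tested probes. Removing the background correction shrank the differences of dim probes such as *Slco1b2*. For lack of signal over background, 47 of 76 transporter probes could not be tested.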

Other observations

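Below the detection limit, the drug pump gene *Abcb1b* had detection p-values of 0.203, 0.0777 and 0.119 on the hSRY-OFF arrays and 0.0138, 0.0238 and 0.0451 on the hSRY-ON arrays. The groups did not overlap, but no array passed 0.01, so the probe was not tested. *Slc22a4*, a carrier of ergothioneine next to *Slc22a5*, passed the limit on hSRY-ON replicate 3 alone (detection p 0.00251, against 0.0501 to 0.639 on the other arrays).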
